A study of Homo sapiens with 6 samples.

Results

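The inhibitor of DNA binding genes ID1, ID2, ID3 and ID4, together with SMAD6, SMAD7, SKI, SKIL, BAMBI and TGIF1, are 10 genes that act downstream of transforming growth factor beta (TGF-beta) and bone morphogenetic protein (BMP) signalling or restrain it. They were taken by gene name from the 39293 genes of the deposited count table, and each name matched 1 gene. The set was chosen with earlier results of these data known. RNA came from SW480, an epithelial line established from a human colorectal cancer. In 3 wells the cells received dihydroartemisinin (DHA) at 20 µg/mL, and in 3 control wells they received 0.1% DMSO, each for 4 h. DHA is an endoperoxide and the compound into which several artemisinin derivatives are converted in the body. No source used here gives the DMSO content of the DHA wells. All wells hold the same line, grown in DMEM with serum, with no added TGF-beta or BMP ligand named in the labels, and no label says that wells came from separate cultures, so p-values speak only of well-to-well spread, which may be technical.

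TGF-beta and BMP ligands bind pairs of serine/threonine kinase receptors, which phosphorylate receptor SMADs. These enter the nucleus with SMAD4 and activate genes that include inhibitors of the pathway. SMAD6 and SMAD7 block receptors and receptor SMADs, and BAMBI is a receptor-like protein without a kinase domain. SKI, SKIL (SnoN) and TGIF1 recruit corepressors to SMAD complexes. The ID proteins are classical BMP targets with a helix-loop-helix but no DNA-binding basic region, and they hold E proteins away from DNA. In the colon BMP signalling is known from the differentiating upper crypt, and SW480 is commonly described as lacking SMAD4 protein.

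The libraries held 14291726 to 18938456 counts. On the counts-per-million scale (CPM) 3 counts were worth 0.158 to 0.210. Of 7 epithelial markers, 6 were detected above 20 CPM in both groups, KRT8 highest at 2831 and 3308 CPM (group means), while VIL1 had 0.137 and 0.640 CPM. Summed markers of fibroblasts were 21.6 to 29.7 CPM in controls and 70.9 to 93.6 CPM in DHA, nearly all of it COL1A1, with COL1A2, DCN and LUM at 0. Those of leukocytes were 0.443 to 1.16 and 3.42 to 5.46 CPM with PTPRC at 0. Most of that rise was CD14, with group means of 0.527 CPM in controls and 4.21 CPM in DHA. Those of endothelium were 0.959 to 1.96 and 0.810 to 1.86 CPM. Mitochondrial genes took 7.84% to 9.30% of counts in controls and 11.6% to 13.3% in DHA. The part of these differences in the results below was not tested. The DHA library of replicate 2 stood apart from the other 2 DHA libraries: 6.86% of tested genes lay at least 0.5 on the log2 scale from their mean, against 1.51% to 2.90% for each of the other 5 libraries, measured from the other 2 of its group. Fold changes also moved with base composition. Genes with a transcript GC content up to 40% had a median log2 fold change of -0.36 (2349 genes) and those above 60% of 0.43 (2380 genes). Both facts touch members below, so where they matter a value is repeated with that library left out or with an offset for GC content and length. That offset shifted the median of all genes from 0.011 to -0.11 and the higher share of called genes from 49.6% to 39.5%, a share that was 38.3% with limma on log2(CPM + 1) and 40.8% with library totals alone.

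After 4 h of DHA, transcripts of ID2, ID3, BAMBI, SKIL and SMAD7 rose, as did those of ID1, whose log2 fold change turned to -0.15 with the GC and length offset. Those of TGIF1 and SKI fell, SMAD6 did not pass the test, and ID4 was barely detected. The differences ran from 3.80 times the control mean for ID2 to 0.705 times for TGIF1, as ratios of mean CPM. CPM uses library totals, whereas the fitted log2 fold changes use TMM scaling, so a pair of CPM means can give another value. With library totals alone ID1 was at 0.29 and SKI at -0.40, against 0.39 and -0.30 with TMM. The median of all tested genes was -0.085 with library totals alone and 0.011 with TMM. Of the 10 genes, 9 passed the low-count filter, and 8 of these were called at an adjusted p under 0.05 in the quasi-likelihood test of edgeR with the adjustment of Benjamini and Hochberg, 6 higher and 2 lower. Of all 15811 tested genes 59.6% were called, 29.6% higher and 30.1% lower. The median log2 fold change of the 9 was 0.72, beside 0.011 for all tested genes. ID2, ID3 and BAMBI passed with a rise of at least 2-fold, as 10.7% of all tested genes did, and no member fell that far, as 4.96% of all tested genes did. CPM values of the groups did not overlap for 8 of the 9, against 65.5% of all tested genes. In bulk RNA, fewer cells of a type and less RNA per cell cannot be told apart.

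**Figure D1:**
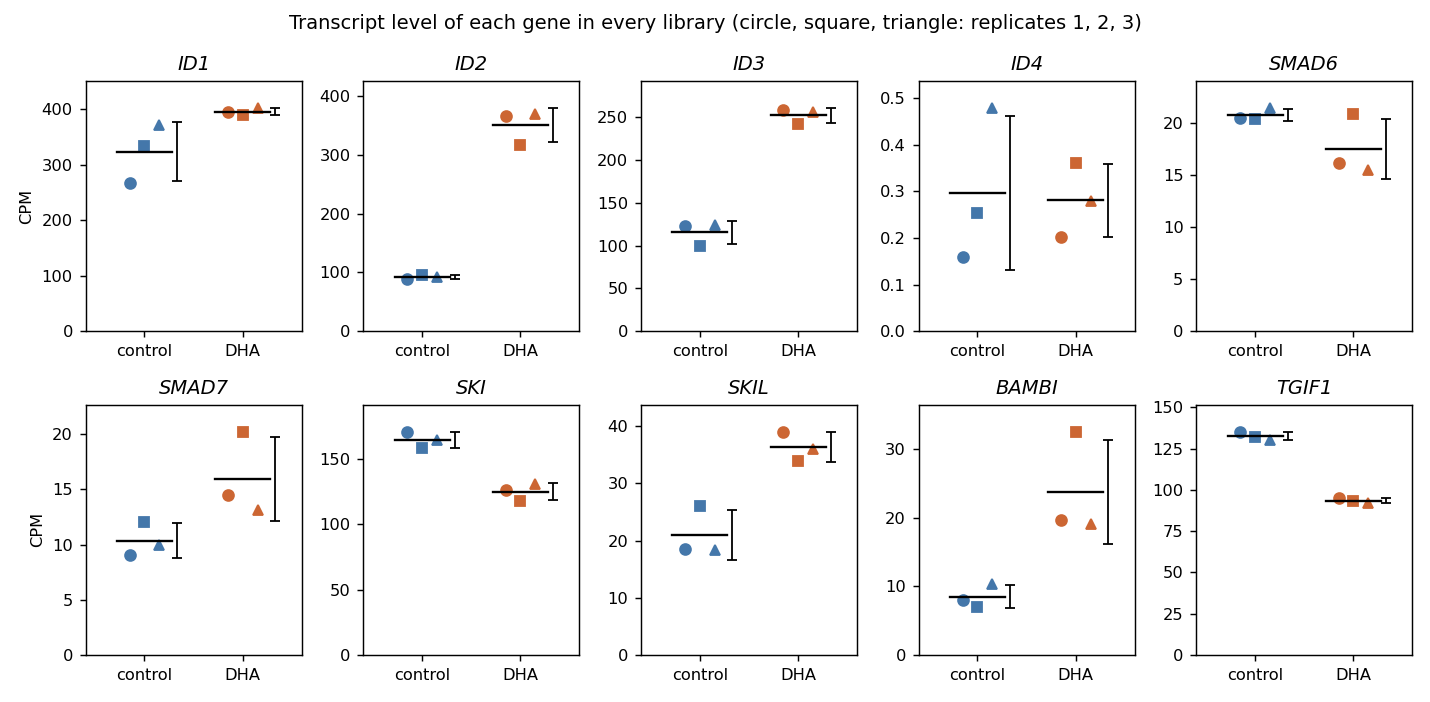
CPM (vertical axis, linear from 0, own scale per gene) of the 10 genes in the 3 control and 3 DHA libraries, with the group mean as a line and the SD as a bar. The DHA points of ID2 lie between 317 and 369 CPM and those of controls between 89.5 and 95.7, whereas the DHA points of SMAD6, SMAD7 and BAMBI are spread by the library of replicate 2 (square).

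ID2 showed the largest change of the 10. Its control libraries of replicates 1, 2 and 3 held 89.5, 95.7 and 91.7 CPM and its DHA libraries 366, 317 and 369 CPM. The DHA libraries were all far above the controls, and those of replicates 1 and 3 nearly equal. The mean went from 92.3 ± 3.12 to 350.4 ± 29.4 CPM (SD, n = 3 per group), with a log2 fold change of 2.02 ± 0.08 (SE) and an adjusted p of 6.72e-09 in edgeR's test. The gene lies on chromosome 2 from 8678845 to 8684453, plus strand, by the coordinates of the deposited table, which equal those of GENCODE release 29 on GRCh38 for 96.8% of the identifiers found there. ID2-AS1, an antisense RNA that shares 38 exonic bases with ID2 on the opposite strand, had 5, 9 and 7 counts in controls and 31, 52 and 45 in DHA, with a log2 fold change of 2.84 ± 0.33 and an adjusted p of 2.08e-05 in the same test. No source used here says whether counting used strand, so reads in the shared bases cannot be assigned. ID2-AS1 was at 0.418 ± 0.153 CPM in controls and 2.79 ± 0.602 CPM in DHA (SD, n = 3).

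ID3 (chromosome 1, 23557918 to 23559794, minus strand) held 123, 99.7 and 124 CPM in the control libraries and 258, 242 and 256 CPM in the DHA libraries. All DHA libraries were above all controls, and the DHA libraries lay closer together than the controls. The log2 fold change was 1.22 ± 0.09 (SE), from 115 ± 13.6 to 252 ± 8.70 CPM (SD, n = 3), with an adjusted p of 6.10e-07 in edgeR's test. With the GC and length offset ID3 was at 0.72 ± 0.10, a call that held. Its longest transcript has 1251 bases at 57.2% GC and that of ID1 has 1233 bases at 58.6% GC. The offset covers GC content and length together, and their parts in its effect were not tested apart.

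ID1, the most abundant of the 4 (chromosome 20, 31605283 to 31606515, plus strand), held 266, 333 and 371 CPM in controls and 395, 389 and 402 CPM in DHA. The groups did not overlap, but the highest control lay just under the lowest DHA library. Its log2 fold change was 0.39 ± 0.10 (SE), from 324 ± 53.1 to 396 ± 6.53 CPM (SD, n = 3), with an adjusted p of 0.00732 in edgeR's test. With the GC and length offset this call ended and the value was -0.15 ± 0.11 with an adjusted p of 0.286. Without the control library of replicate 1, the lowest, the log2 fold change was 0.26 with an adjusted p of 0.0350, which is more than 1.5 times smaller.

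ID4 (chromosome 6, 19837386 to 19840684, plus strand) had 3, 4 and 8 counts in controls and 3, 6 and 4 in DHA. These values overlap. ID4 did not pass the low-count filter, and a difference was not detectable at this depth. An antisense gene that overlaps ID4 outside its exons, AL022068.1, had 1, 2 and 1 counts in controls and 15, 7 and 6 in DHA and was not tested.

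Scaled to the length of the merged exons (CPM per kilobase), which allows levels of different genes to be compared, the make-up of the ID transcripts differed between the groups. ID1 took 66.4%, 73.2% and 73.1% of the summed ID1 to ID4 level per length in the control libraries and 50.8%, 53.1% and 51.3% in DHA. ID2 took 12.5%, 11.7% and 10.1% in controls and 26.3%, 24.2% and 26.3% in DHA. Neither set of shares overlapped. The share of ID3 was 17.6% ± 3.12 in controls and 22.6% ± 0.221 in DHA (SD, n = 3), and that of ID4 was 0.0332% ± 0.0149 and 0.0195% ± 0.0061. An exact permutation test of 3 against 3 cannot give a p below 0.1, so these shares were not tested. The summed level per length was 325, 369 and 411 in controls and 630, 594 and 636 CPM per kilobase in DHA, or 1.68 times as high on average. These levels carry no GC and length offset, with which the log2 fold changes of ID1, ID2 and ID3 were -0.15, 1.65 and 0.72. The transcripts of their binding partners, the E proteins TCF3, TCF4 and TCF12, summed to 72.8 ± 1.002 CPM per kilobase in controls and 53.6 ± 3.71 in DHA. TCF4 had at most 2 counts in any library, so nearly all of this sum was TCF3 and TCF12. The ratio of summed ID to summed E protein transcripts was 4.41, 5.15 and 5.64 in controls and 11.5, 12.0 and 11.3 in DHA, and every DHA library lay above every control. This ratio was computed only with merged exons and without the offset.

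**Figure D2:**
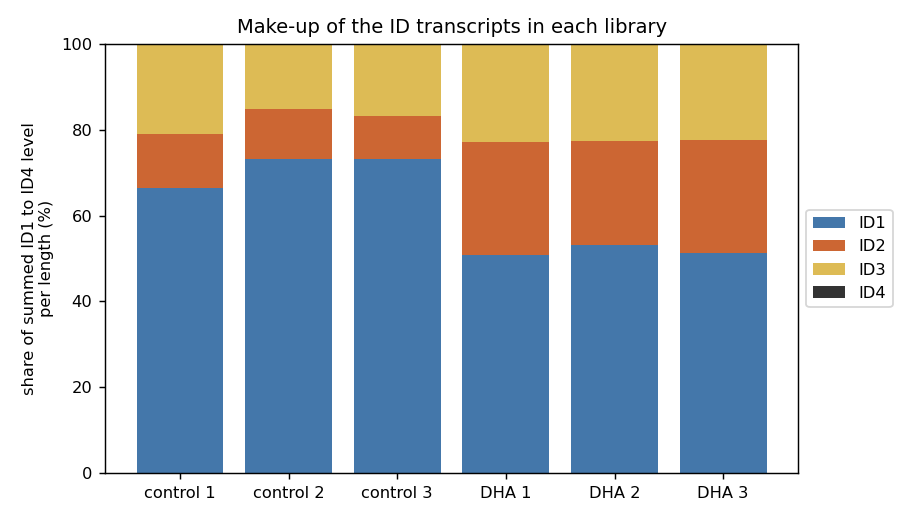
Share (%, vertical axis) of ID1, ID2, ID3 and ID4 in their summed level per length of merged exons in each of the 6 libraries. ID1 takes 66.4% to 73.2% in controls and 50.8% to 53.1% in DHA, ID2 grows from 10.1% to 12.5% in controls to 24.2% to 26.3% in DHA, and ID4 is too small to be seen.

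The promoter windows of the 3 expressed ID genes are shown because these genes were called in the same direction in the count test. The windows are the 250 bases before the annotated start from RefSeq on GRCh38.p14, printed on the strand of the gene. Such windows were found for 9 of the 10 members, all but SKI. The RefSeq starts differ from the gene starts given above. The windows of ID2 and ID3 lie inside those gene coordinates, and that of ID1 ends just inside them. They are chr20:31605039-31605288 on the plus strand for ID1, chr2:8681806-8682055 on the plus strand for ID2 and chr1:23559502-23559751 on the minus strand for ID3. Capitals mark matches to any of 7 motifs searched on both strands: GTCTAGAC and GGCGCC, a palindromic and a GC-rich element bound by SMADs, TGACGTCA, the cyclic AMP response element, TGANTCA, bound by AP-1, GCGTGGGCG, bound by EGR factors, TATAAA, the TATA box, and CCAAT, the CCAAT box.
ID1: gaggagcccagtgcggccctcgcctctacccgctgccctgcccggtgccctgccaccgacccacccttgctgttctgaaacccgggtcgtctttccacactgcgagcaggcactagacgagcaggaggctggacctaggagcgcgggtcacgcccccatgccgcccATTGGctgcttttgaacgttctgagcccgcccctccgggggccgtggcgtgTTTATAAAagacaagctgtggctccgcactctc
ID2: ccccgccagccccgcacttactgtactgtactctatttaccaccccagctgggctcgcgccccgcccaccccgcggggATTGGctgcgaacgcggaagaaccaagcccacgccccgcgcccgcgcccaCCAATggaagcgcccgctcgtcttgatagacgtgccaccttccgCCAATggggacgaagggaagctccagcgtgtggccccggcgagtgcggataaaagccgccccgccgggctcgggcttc
ID3: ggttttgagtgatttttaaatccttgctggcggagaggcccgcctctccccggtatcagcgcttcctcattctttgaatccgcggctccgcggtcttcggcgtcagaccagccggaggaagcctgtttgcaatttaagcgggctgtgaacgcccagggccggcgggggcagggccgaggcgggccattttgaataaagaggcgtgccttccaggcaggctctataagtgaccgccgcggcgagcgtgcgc
The ID1 window holds TATAAA, first base 31 bases before the start, with an overlapping match on the other strand, and 1 CCAAT on the other strand. The ID2 window holds 3 CCAAT matches, and in the ID3 window none of the 7 motifs was matched. Of all 35116 promoter windows in the same table, 10.7% hold TATAAA and 32.01% hold CCAAT. None of the 3 windows holds either SMAD element, which says only that these letters are not in these bases. SW480 DNA was not sequenced here, so the letters are those of the reference.

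SMAD7 rose and SMAD6 did not pass. SMAD7, which is induced by TGF-beta and targets its receptor for degradation, lies on chromosome 18 from 48919853 to 48950711, minus strand. These coordinates differ from those of GENCODE release 29, which gave the lengths and GC content used for SMAD7. SMAD7 held 9.03, 12.1 and 9.95 CPM in controls and 14.4, 20.2 and 13.1 CPM in DHA. All DHA libraries were above all controls, with that of replicate 2 farthest. The log2 fold change was 0.72 ± 0.16 (SE), from 10.4 ± 1.57 to 15.9 ± 3.80 CPM (SD, n = 3), with an adjusted p of 0.00248 in edgeR's test. In the same test it was 0.55 ± 0.14 with an adjusted p of 0.00373 without the DHA library of replicate 2. With the GC and length offset it was 0.50 ± 0.15 with an adjusted p of 0.0126.

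SMAD6, the inhibitory SMAD linked mainly to BMP receptors (chromosome 15, 66702228 to 66782848, plus strand), held 20.5, 20.4 and 21.5 CPM in controls. Its DHA libraries held 16.1, 20.8 and 15.5 CPM. That of replicate 2 lay within the control range and the other 2 below it. The log2 fold change was -0.15 ± 0.11 (SE) with an adjusted p of 0.272 in edgeR's test. Without the DHA library of replicate 2 it was -0.25 ± 0.10 with an adjusted p of 0.0385, and with the GC and length offset -0.32 ± 0.10 with an adjusted p of 0.0180, so whether SMAD6 is called rests on that library and on the offset. Per length, the ratio of SMAD7 to SMAD6 transcripts was 0.750, 1.01 and 0.789 in controls and 1.52, 1.65 and 1.43 in DHA, without overlap.

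BAMBI, a decoy receptor that also answers to Wnt and BMP signals (chromosome 10, 28677342 to 28682939, plus strand), held 8.03, 7.02 and 10.3 CPM in controls and 19.7, 32.5 and 19.1 CPM in DHA. All DHA libraries exceeded all controls, and the library of replicate 2 was 1.68 times the mean of the other 2. The log2 fold change was 1.59 ± 0.20 (SE), from 8.45 ± 1.69 to 23.8 ± 7.59 CPM (SD, n = 3), with an adjusted p of 3.78e-05 in edgeR's test. With the GC and length offset it was 1.24 ± 0.18 with an adjusted p of 0.000102 in the same test. Without the DHA library of replicate 2 it was 1.34 ± 0.14 with an adjusted p of 3.67e-06. Relative to the mean of the other DHA libraries, that library was also 1.47 times as high for SMAD7 and 1.32 times for SMAD6, whereas for ID1, ID2, ID3, SKI, SKIL and TGIF1 it was between 0.862 and 0.997 times.

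SKI and SKIL, close relatives that hold corepressors on SMAD2, SMAD3 and SMAD4, moved in opposite directions. SKIL (chromosome 3, 170357678 to 170396835, plus strand) held 18.5, 26.0 and 18.3 CPM in controls and 39.1, 34.0 and 36.1 CPM in DHA. The log2 fold change of SKIL was 0.90 ± 0.13 (SE), from 20.9 ± 4.39 to 36.4 ± 2.57 CPM (SD, n = 3), with an adjusted p of 0.000105 in edgeR's test. The highest control, that of replicate 2, stayed below the lowest DHA library. With the GC and length offset SKIL was at 1.40 ± 0.11, over 1.5 times the value without it, and its longest transcript, with 7182 bases at 33.4% GC, is both the longest and the lowest in GC content of the 10.

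SKI (chromosome 1, 2228695 to 2310119, plus strand) held 171, 158 and 164 CPM in controls and 126, 118 and 131 CPM in DHA. All DHA libraries were below all controls, and SKI fell by 0.30 ± 0.07 (SE) on the log2 scale, from 164 ± 6.42 to 125 ± 6.72 CPM (SD, n = 3), with an adjusted p of 0.00387 in edgeR's test. With the offset it was at -0.47 ± 0.08, over 1.5 times the size without it. Per length, SKI remained the more abundant of the pair: the ratio of SKIL to SKI was 0.0847, 0.129 and 0.0869 in controls and 0.242, 0.226 and 0.216 in DHA, more than doubled on average but under 1 in every library.

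TGIF1, a homeodomain corepressor that binds SMAD2 (chromosome 18, 3411608 to 3459978, plus strand), was the member with the tightest replicates. It held 135, 132 and 130.3 CPM in controls and 95.1, 93.3 and 92.1 CPM in DHA. The groups were far apart relative to their spread. TGIF1 fell by 0.41 ± 0.06 (SE) on the log2 scale, from 133 ± 2.57 to 93.5 ± 1.5 CPM (SD, n = 3), with an adjusted p of 0.000168 in edgeR's test. Its processed pseudogene TGIF1P1 had 1 count in the DHA library of replicate 1 and 0 in the other 5 libraries, though how reads that fit both genes were counted is not known.

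**Figure D3:**
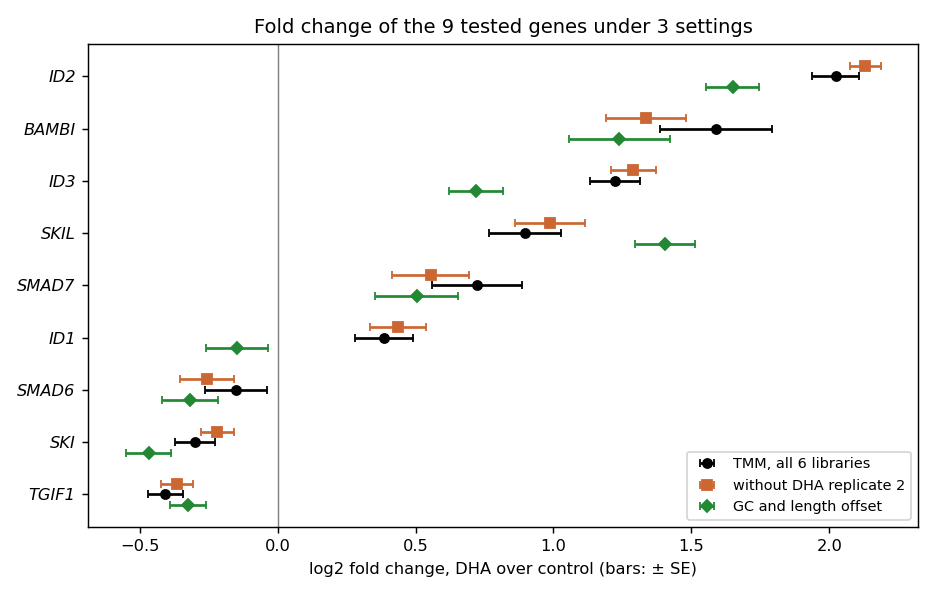
Log2 fold change of DHA over control (horizontal axis, bars ± SE) for the 9 tested genes with all 6 libraries, with DHA replicate 2 left out, and with the GC and length offset. ID1 is on the higher side at 0.39 and on the lower side at -0.15 with the offset, and the other 8 genes keep their side under the 3 settings.

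The windows of SKIL, BAMBI and SMAD6 are shown because they hold SMAD or cyclic AMP response letters among the 7 motifs. They lie at chr3:170357465-170357714, chr10:28677271-28677520 and chr15:66701986-66702235, all on the plus strand, with matches in capitals as above. By the gene coordinates given above, most of the BAMBI window and the ends of the SKIL and SMAD6 windows lie inside the gene.
SKIL: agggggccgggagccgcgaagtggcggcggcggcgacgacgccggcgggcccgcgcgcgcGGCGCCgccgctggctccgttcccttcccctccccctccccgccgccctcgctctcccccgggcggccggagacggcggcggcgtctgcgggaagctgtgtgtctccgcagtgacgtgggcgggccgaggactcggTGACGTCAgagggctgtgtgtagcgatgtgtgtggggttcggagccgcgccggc
BAMBI: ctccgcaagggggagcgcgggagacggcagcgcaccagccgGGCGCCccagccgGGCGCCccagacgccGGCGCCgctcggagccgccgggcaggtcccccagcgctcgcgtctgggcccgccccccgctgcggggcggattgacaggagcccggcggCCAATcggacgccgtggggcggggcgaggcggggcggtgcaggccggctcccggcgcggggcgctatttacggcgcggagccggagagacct
SMAD6: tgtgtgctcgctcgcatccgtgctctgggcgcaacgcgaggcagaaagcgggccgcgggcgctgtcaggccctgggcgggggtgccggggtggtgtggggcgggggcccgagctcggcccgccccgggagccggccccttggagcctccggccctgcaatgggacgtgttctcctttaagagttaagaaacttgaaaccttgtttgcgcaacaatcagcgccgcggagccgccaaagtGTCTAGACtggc
SKIL holds GGCGCC 190 bases and TGACGTCA 54 bases before the start. BAMBI holds 3 copies of GGCGCC and 1 of CCAAT. SMAD6, which did not pass the test, holds GTCTAGAC 12 bases before the start. GGCGCC is in 16.4% of the 35116 windows, TGACGTCA in 1.65% and GTCTAGAC in 0.182%. Of the remaining windows, that of ID4 holds a TATA box and a CCAAT box, 1 of 3 SMAD7 windows a TATA box, and the 7 TGIF1 windows an AP-1 element, a TATA box and CCAAT boxes among them. The AP-1 element is in 6.57% of all windows. The EGR element, in 0.720% of all windows, was matched in none of the 9 members with a window. SKI had no window and was not searched. A match is a description of letters and not a site of binding.

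Per length, the control order of the members was ID1 at 262 ± 43.0 CPM per kilobase, ID3 at 64.3 ± 7.60, ID2 at 41.9 ± 1.41, SKI at 27.0 ± 1.06 and TGIF1 at 16.1 ± 0.312 (SD, n = 3), each separated from the next. Then came BAMBI at 3.65 ± 0.728, SKIL at 2.69 ± 0.564, SMAD6 at 2.43 ± 0.0675 and SMAD7 at 2.06 ± 0.311, neighbours whose libraries overlapped, and last ID4 at 0.127 ± 0.0704. In DHA the same scale put ID2 at 159 ± 13.3 above ID3 at 140.2 ± 4.84, a pair that overlapped, and SMAD7 at 3.16 ± 0.754 above SMAD6 at 2.04 ± 0.339, a pair that did not. BAMBI reached 10.3 ± 3.28, overlapping TGIF1 at 11.4 ± 0.182. With the length of the longest transcript instead of the merged exons, 6 of the 10 members kept their rank in controls. TGIF1 rose above SKI in that ordering and SMAD6 above SKIL, and in DHA ID3 stood above ID2. On that scale SMAD7 at 3.60 ± 0.858 and SMAD6 at 3.37 ± 0.559 overlapped in DHA, while TGIF1 at 30.9 ± 0.495 and BAMBI at 12.6 ± 4.03 did not, so these orders depend on which exons are counted.

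The other genes of the pathway were taken from 8 lists of 101 genes, chosen with earlier results of these data known. Of the 101 genes, 73 passed the low-count filter. Of the 73, 25 rose, 26 fell and 22 did not pass, so that 69.9% were called beside 59.6% of all tested genes. Their median log2 fold change was -0.063. The shares to set beside each list below are 29.6% of all tested genes called higher and 30.1% called lower.

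Of 14 tested receptors and co-receptors 8 fell, 1 rose and 5 did not pass, and their median was -0.77, where 30.1% of all tested genes were called lower. With the offset 9 were called lower and 2 higher. ACVR2B, an activin receptor, fell from 58.9 ± 2.58 to 16.9 ± 2.32 CPM (SD, n = 3) with an adjusted p of 8.03e-08 in edgeR's test. The type I TGF-beta receptor TGFBR1 fell by 1.34 ± 0.09 (SE), the BMP receptor BMPR2 fell by 1.04 ± 0.08, the activin receptor ACVR1B fell by 0.98 ± 0.08 and the BMP receptor BMPR1A fell by 0.69 ± 0.08 on the log2 scale. The last was at -0.23 with the GC and length offset and BMPR2 at -0.50, with both calls kept. The gene that rose was TGFBR2, the type II TGF-beta receptor, from 43.4 ± 3.69 to 59.9 ± 3.24 CPM. Of 6 signal-transducing SMADs, 4 fell, 1 rose and SMAD1 did not pass. SMAD5, which carries BMP signals, fell from 114 ± 2.83 to 42.3 ± 2.15 CPM with an adjusted p of 5.17e-08, SMAD9 fell by 1.39 ± 0.22 and SMAD2 fell by 0.43 ± 0.06, while SMAD3, which carries TGF-beta signals, rose by 0.48 ± 0.09. The transcript of the shared partner SMAD4 fell from 48.6 ± 1.70 to 31.4 ± 5.10 CPM. With the offset SMAD2 turned to 0.17 and SMAD4 was at -0.13, and neither passed, which left 2 SMADs called lower and 1 higher and moved the median of the 6 from -0.48 to 0.016.

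Of 14 tested ligands 5 rose, 1 fell and 8 did not pass, but with the offset 3 were called higher and 5 lower. BMP4 was the most abundant at 656 ± 16.8 CPM in controls and 641 ± 13.2 CPM in DHA (SD, n = 3). It did not pass, with a log2 fold change of 0.063 ± 0.07 (SE) with TMM. With library totals alone, the scale of these CPM values, BMP4 was at -0.033. With the offset it was at -0.34 and then passed. BMP2 was near 1 CPM in both groups and did not pass, and INHBA was under 1 CPM in all libraries and was not tested. TGFB1 rose from 78.0 ± 5.04 to 87.5 ± 2.19 CPM, a call that ended with library totals alone, without the low-count filter and with limma. With the offset TGFB1 was at -0.23 and called lower. GDF9 and MSTN rose by 3.14 ± 0.26 and 1.79 ± 0.31 from control means under 1 CPM, and the anti-Müllerian hormone gene AMH rose from 27.6 ± 0.270 to 63.3 ± 28.03 CPM. AMH had 95.6 CPM in the DHA library of replicate 2 and 49.4 and 44.99 CPM in the other DHA libraries, and its log2 fold change of 1.29 was 0.35 with the offset. GDF9 shares 306 exonic bases with UQCRQ on the opposite strand. BMP8B fell by 0.31 ± 0.12 and was no longer called in 6 of 15 other settings, 4 of which left out 1 library. Only 3 of 13 extracellular antagonists were tested: TWSG1, which binds BMPs, fell by 0.88 ± 0.08, and the activin-binding FSTL3 rose by 0.64 ± 0.12, a call that ended with the offset.

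Among 12 intracellular regulators 3 rose, 6 fell and 3 did not pass, but with the offset 4 were called higher and 2 lower. Higher were LDLRAD4 and PMEPA1, membrane proteins that bind receptor SMADs and restrain them, at 1.88 ± 0.20 and 1.19 ± 0.35 (log2 fold change ± SE), and the ubiquitin ligase NEDD4L at 0.66 ± 0.07, or 1.0 with the offset. LDLRAD4 and PMEPA1 rose from low control means of 1.69 and 0.906 CPM. PMEPA1 was at 0.79 without the DHA library of replicate 2, where it no longer passed. Lower were TGIF2, the relative of TGIF1, at -0.70 ± 0.11, and the SMAD phosphatase PPM1A at -0.56 ± 0.08, a call that ended with the offset. Of 8 tested corepressor partners of SKI and TGIF1, 4 fell, 1 rose and 3 did not pass, and with the offset 4 were called lower and 3 higher. HIPK2 fell by 0.84 ± 0.07, or 0.56 with the offset, SIN3A fell by 0.66 ± 0.10 and the deacetylase HDAC1 fell by 0.48 ± 0.06. HDAC2 fell by 0.21 ± 0.07 but passed as higher, at 0.27, with the offset and lost its call when any 1 library but the control of replicate 2 was left out. NCOR1 rose by 0.20 ± 0.07 and was no longer called in 9 of 15 other settings. Both tested E protein genes fell, TCF3 from 365 ± 10.9 to 271 ± 21.7 CPM (SD, n = 3) and TCF12 from 121 ± 9.94 to 84.9 ± 1.57 CPM, and with the offset TCF3 was at -0.61 on the log2 scale and the call of TCF12 ended.

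Of 14 other TGF-beta and BMP target genes, 13 rose and ATOH8 did not pass, where 29.6% of all tested genes were called higher. This list too was chosen with earlier results of these data known. Its median log2 fold change was 2.98, unchanged with HAMP at its lower bound. With the offset 12 were called higher and 1 lower, and the median was 2.41. CTGF, a matricellular protein, rose from 3.66 ± 1.48 to 238 ± 1.99 CPM (SD, n = 3). JUNB rose by 2.86 ± 0.08 (SE) and ANGPTL4 by 3.40 ± 0.11 on the log2 scale, and the adjusted p of CTGF, JUNB and ANGPTL4 lay between 2.24e-10 and 5.87e-10 in edgeR's test. JUNB shares 14.2% of its exonic bases with HOOK2 on the opposite strand. HAMP, which encodes the iron hormone hepcidin and is known in liver as a BMP target, was singled out after its values were seen. It had 0 counts in the 3 control libraries and 44, 48 and 49 counts in DHA. Taking 3 counts over the 3 controls together as the floor, HAMP was at least 53.0-fold higher in DHA. Several of these targets also answer to other pathways, and the part of SMAD signalling in their rise was not tested.

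**Figure D4:**
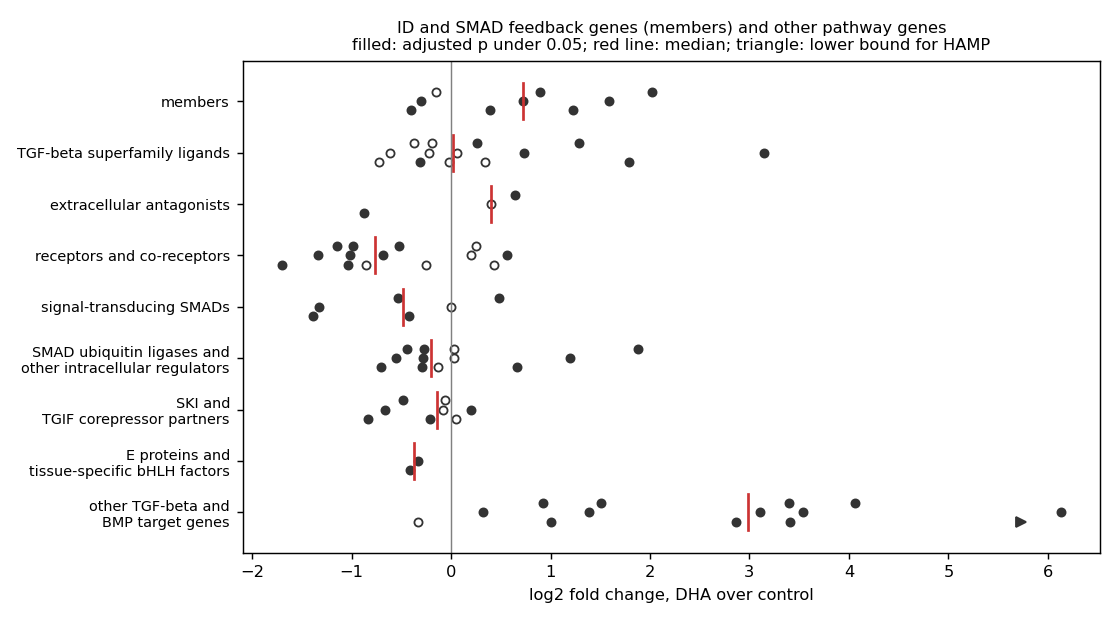
Log2 fold change of DHA over control (horizontal axis) of each tested gene in the ID and SMAD feedback set and in 8 lists of other pathway genes; filled points passed at an adjusted p under 0.05, open points did not, red lines are medians and the triangle is the lower bound of HAMP. The median of receptors is -0.77 and that of other target genes 2.98.

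The genes whose pattern was nearest to that of 3 members were found by the Euclidean distance between log2(CPM + 1) values, centred on each gene's mean, over the 6 libraries and 11143 other genes of mean at least 5 CPM. These are descriptions of 6 libraries that share their depth and their grouping. Nearest to ID1 were DZIP1L at a distance of 0.175, ST7L at 0.191 and PPP1R13L at 0.198. Nearest to SMAD7 were LAT2 at 0.168, CPA4 at 0.196 and SLC35F3 at 0.197, each with its highest value in the DHA library of replicate 2. Nearest to BAMBI were HSPE1 at 0.171, UPP1 at 0.348 and TAF10 at 0.377, also highest in that library. HSPE1 encodes a mitochondrial chaperonin and has many processed pseudogenes, so its count is uncertain.

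The authors' deposited table of genes past their own limits lists 3 of the 10 members. In the authors' deposited table ID2 has a log2 fold change of 2.01, BAMBI of 1.57 and ID3 of 1.21, with adjusted p of 1.20e-101, 3.99e-13 and 3.02e-32. The other 7 members are not listed there.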

How the data were processed

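The members and gene lists were chosen with earlier results of these data known. The authors deposited raw read counts per gene for 6 libraries. HISAT2 and DESeq2 1.18.1 are named in the submitters' processing notes. No source used here gives the counting tool, strand setting or genome build. Of 40846 gene rows, those sharing a name carried identical counts and 1 row per name was kept, leaving 39293 genes, and 32 lines of annotation text were left out. Of 39167 identifiers found in GENCODE release 29 (GRCh38), 96.8% had the same coordinates, so coordinates are those of the deposited table. A further table named FPKM was not used. The authors' deposited log2 fold changes and p-values are quoted for 3 members.

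Counts were tested with edgeR 4.0.16 in R 4.3.3 (filterByExpr with a minimum count of 10, TMM, quasi-likelihood test, Benjamini-Hochberg adjustment over 15811 genes, adjusted p under 0.05). Standard errors came from the F statistic. Alternatives used limma 3.58.1, DESeq2 1.42.0, other scalings and filters, each library left out, a replicate block and a loess offset for GC content and length. CPM used library totals and lengths were merged exons. The chi-square per gene between libraries of 1 group was 1.65 to 13.1, above sampling noise, so none was taken for a copy. Named pathway genes followed a rule: up to 4 called genes per list with the smallest adjusted p, called genes of the rarer direction where 3 or fewer, and a fixed set of pathway genes whatever their test. A gene that this rule names is not reported here. SMAD1, ATOH8 and HAMP were named after their values were seen.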

Additional observations from a re-analysis of the deposited data

How the results depend on the processing

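All 15 alternative settings left the counts of called members at 5 or 6 higher and 2 or 3 lower, and the pathway counts at 21 to 25 higher and 22 to 32 lower. Called genes ranged from 8351 to 10983. ID2, ID3, SMAD7, SKI, SKIL, BAMBI and TGIF1 kept their direction and their call in all 15. With the GC and length offset, and with it beside the replicate block, ID1 was at -0.15 and -0.14, BMP4 at -0.34 and -0.34, TGFB1 at -0.23 and -0.23, HDAC2 at 0.27 and 0.28, and SMAD2 at 0.17 and 0.17, each against its main direction. BMP4 was also at -0.033 with library totals, -0.0049 without the low-count filter and -0.033 with limma. Leaving out 1 library each moved BMP2 between -0.14 and 0.15. Under the length of the longest transcript, 6 of 10 members kept their rank in controls. The ID1 share in controls was 65.3% in place of 70.9%, and that of ID3 was 23.2% in place of 17.6%. Same-numbered libraries did not deviate together, with correlations of 0.020, -0.085 and -0.055, and not every library correlated best with its own number, so the numbers were not taken as pairs. A replicate block gave 8907 called genes in place of 9431, with 6 members higher and 2 lower. Depth limits ID4, at 3 to 8 counts per library. The offset corrects GC content and length at once, and neither was tried alone. The cause of these shifts was not tested.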
